A study of Mus musculus and Homo sapiens with 56 samples.

Results

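The D395A substitution removes the catalytic aspartate of METTL3, the subunit of the m6A methyltransferase complex that transfers the methyl group, and here it was carried by mouse embryonic stem cells of the E14TG2a line. N6-methyladenosine (m6A) peaks of chromatin-associated RNA were compared between unmodified E14TG2a cells (WT) and the D395A cells. All peaks of both deposited m6A lists of mouse embryonic stem cells were taken: 48445 WT peaks and 38823 D395A peaks, 87268 of the 201133 peaks in all peak lists of the series. The WT list came from 2 immunoprecipitated libraries with 2 inputs and the D395A list from 1 with 1 input, so 6 of the 56 samples lay behind them. Both lines were untreated and grew in serum-free N2B27 medium with a MEK inhibitor, a GSK3β inhibitor and leukemia inhibitory factor (LIF). Chromatin RNA was fragmented to 100 to 300 nt before incubation with an anti-m6A antibody. The labels do not say whether the D395A line is a single clone, nor whether the libraries of a group came from separate cultures, so p-values measure only the spread between these samples. RNA levels came from rRNA-depleted total RNA of 2 WT and 2 D395A libraries. With 1 peak list for each genotype no test of a peak difference was possible, and peak comparisons are descriptions.

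m6A is deposited on nascent transcripts by a complex in which METTL3 is catalytic, METTL14 helps to bind the RNA and WTAP, VIRMA, ZC3H13, CBLL1 and the RBM15 proteins guide it to its sites. It favours adenosines in a GGAC-like context and concentrates in long internal exons and around stop codons. Nuclear YTHDC1 and cytoplasmic YTHDF proteins read the mark, and many marked messages are short-lived. Other enzymes also place m6A or the related cap mark on RNA, among them METTL16, whose best known target is Mat2a, the gene of the enzyme that makes the methyl donor. Antibodies to m6A also bind m6Am, the related mark next to the cap.

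Among overlapping peaks, the difference between the lists was smallest at first exons: the median enrichment was 5.05-fold in WT and 2.82-fold in D395A over all 222 pairs there, and 3.54-fold and 3.53-fold over the 66 whose D395A peak had a q-value of 0.05 or less. For this reason 6 start windows are shown. Each runs from 150 bases before to 30 after a RefSeq transcript start on mm10, 5′ to 3′ on the gene strand, with GGAC in capitals. Bases before the start are not part of the RNA that begins there. The GGAC of Fem1a and of Hspa5 lies before the start, and that of Phf10 after it. Fem1a (chr17:56256643-56256822, plus strand) and Rbm15 (chr3:107333260-107333439, minus strand) had their start under a WT peak with no D395A peak there, of 24.3-fold and 8.68-fold enrichment. Phf10 (chr17:14961231-14961410, minus strand) and Map2k5 (chr9:63377873-63378052, minus strand) had it under peaks of both lists, at 3.98-fold in WT and 4.15-fold in D395A for Phf10 and at 4.18-fold and 4.46-fold for Map2k5. Hspa5 (chr2:34771940-34772119, plus strand) and Tma7 (chr9:109082352-109082531, minus strand) had it under a D395A peak of 4.28-fold and 7.66-fold with no WT peak listed. The Hspa5 peak, unlike that of Tma7, lies where the WT list lacks a peak number, as described below. For Hspa5 the lack of a listed WT peak cannot be read as a lack of m6A in WT cells.
Fem1a: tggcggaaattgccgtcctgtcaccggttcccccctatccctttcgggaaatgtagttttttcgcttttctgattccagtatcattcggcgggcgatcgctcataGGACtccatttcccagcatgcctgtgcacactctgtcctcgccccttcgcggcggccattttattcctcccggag
Rbm15: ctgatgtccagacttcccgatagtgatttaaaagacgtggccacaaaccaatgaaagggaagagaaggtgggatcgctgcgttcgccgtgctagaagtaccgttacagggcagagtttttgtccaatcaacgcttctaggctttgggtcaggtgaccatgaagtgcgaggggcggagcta
Phf10: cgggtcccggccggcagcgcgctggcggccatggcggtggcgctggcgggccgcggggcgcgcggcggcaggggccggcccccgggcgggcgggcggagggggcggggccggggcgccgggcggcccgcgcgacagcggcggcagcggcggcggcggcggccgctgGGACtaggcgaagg
Map2k5: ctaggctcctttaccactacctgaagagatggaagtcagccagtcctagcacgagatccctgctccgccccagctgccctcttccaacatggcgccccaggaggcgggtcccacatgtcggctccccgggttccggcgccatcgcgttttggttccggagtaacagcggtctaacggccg
Hspa5: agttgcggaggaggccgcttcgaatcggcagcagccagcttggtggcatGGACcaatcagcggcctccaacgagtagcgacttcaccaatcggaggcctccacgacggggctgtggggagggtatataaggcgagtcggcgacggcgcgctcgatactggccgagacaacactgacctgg
Tma7: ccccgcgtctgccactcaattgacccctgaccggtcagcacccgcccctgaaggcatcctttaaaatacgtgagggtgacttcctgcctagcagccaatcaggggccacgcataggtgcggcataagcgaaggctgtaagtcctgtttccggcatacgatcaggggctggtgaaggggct

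GGAC was searched on the gene strand in the 300-base RefSeq windows from 250 before to 50 after each start. It was in 71.8% of the 10368 windows of genes with at least 5 CPM, library-scaled counts not corrected for gene length, in both groups. The share was 72.9% of the 983 windows with the start under a WT peak, 70.3% of 660 under a D395A peak and 63.9% of the 227 under a D395A peak of q 0.05 or less. On the opposite strand GGAC was in 74.0%, 75.2%, 69.7% and 67.4% of these sets, so the last set was lowest on both strands. The longer GGACT was in 28.0% of all these windows, 32.3% of those under a WT peak and 25.9% of those under a D395A peak, and on the opposite strand in 28.0%, 31.3% and 27.4%. Under D395A peaks of q 0.05 or less GGACT was in 24.7%, and on the opposite strand in 31.3%. The windows of the 3 sets were alike in base composition, with a median GC content of 61.3% over all of them and 62.0% and 62.7% under WT and D395A peaks. Most of each window lies before the start, in DNA that is not part of the RNA beginning there. A match is therefore a description of the letters and not a modified site.

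Before the lists were compared, 2 properties of them were measured. The first is the threshold. Every WT peak had a q-value of 0.05 or less, and the median fold enrichment over input, the authors' own value for each peak, was 6.31 (quartiles 4.56 and 9.81). Only 5275 D395A peaks (13.6%) had a q-value that low, and the median fold of the D395A list was 2.66 (quartiles 2.27 and 3.02). WT peaks were also wider, with a median of 595 bp against 309 bp, and 41.7% of D395A peaks were at that list's minimum width of 298 bp. Comparisons are therefore given with the D395A list as deposited and with its 5275 peaks of q 0.05 or less, whose median fold was 3.87. The sequencing depth of the immunoprecipitated and input libraries is unknown here.

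The second is that the WT list has missing peaks. Its peaks carry serial numbers up to 53814, and 5369 of them (9.98%) are absent, while the D395A list has no missing number. Among intervals under 20 kb between neighbouring WT peaks, a number was missing in 2.2% of the 25801 that held no unmatched D395A peak. It was missing in 46.0% of the 87 whose strongest unmatched D395A peak had a −log10 p between 10 and 20, and in 12 of the 17 (70.6%) with one above 20. Of the 167 D395A peaks with a −log10 p above 20, only 2 met a WT peak, and 109 of the other 165 (66.1%) lay where a WT number was missing. For these strong D395A peaks, the lack of a WT peak in the list cannot be read as a lack of m6A in WT cells. The limit extends to weaker D395A peaks where a WT number was missing. These made up 13.7%, 21.5% and 42.7% of unmatched D395A peaks with −log10 p up to 5, 5 to 10 and 10 to 20. Over all unmatched D395A peaks of q 0.05 or less, 25.3% lay where a WT number was missing. The cause of the gaps was not tested. Below, a gene or peak beside such a missing number is said to lie in a numbering gap.

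The peak lists had few sites in common, and at the common sites enrichment was mostly lower in D395A. A WT peak shared at least 1 bp with a D395A peak in 4906 cases, 10.1% of the WT list (Wilson 95% interval 9.86 to 10.4%, for counting error only). These made up 5227 of the D395A peaks, or 13.5% (13.1 to 13.8%). The 5250 overlapping pairs had a median fold enrichment of 7.36 in WT and 2.72 in D395A, a median log2 ratio of -1.46 (quartiles -2.08 and -0.771), and the WT peak was the higher in 4905 pairs (93.4%). With D395A peaks of q 0.05 or less, 1025 WT peaks (2.12%) and 1041 D395A peaks (19.7%) overlapped. The 1047 pairs of that set had medians of 5.86 in WT and 3.81 in D395A, and the WT peak was the higher in 810 (77.4%). A peak caller's threshold bounds the D395A values from below, and a fold is relative to each list's own input. Peaks missing from the WT list could not be counted in these overlaps. With D395A peaks in numbering gaps left out, 15.4% of D395A peaks met a WT peak.

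**Figure D1:**
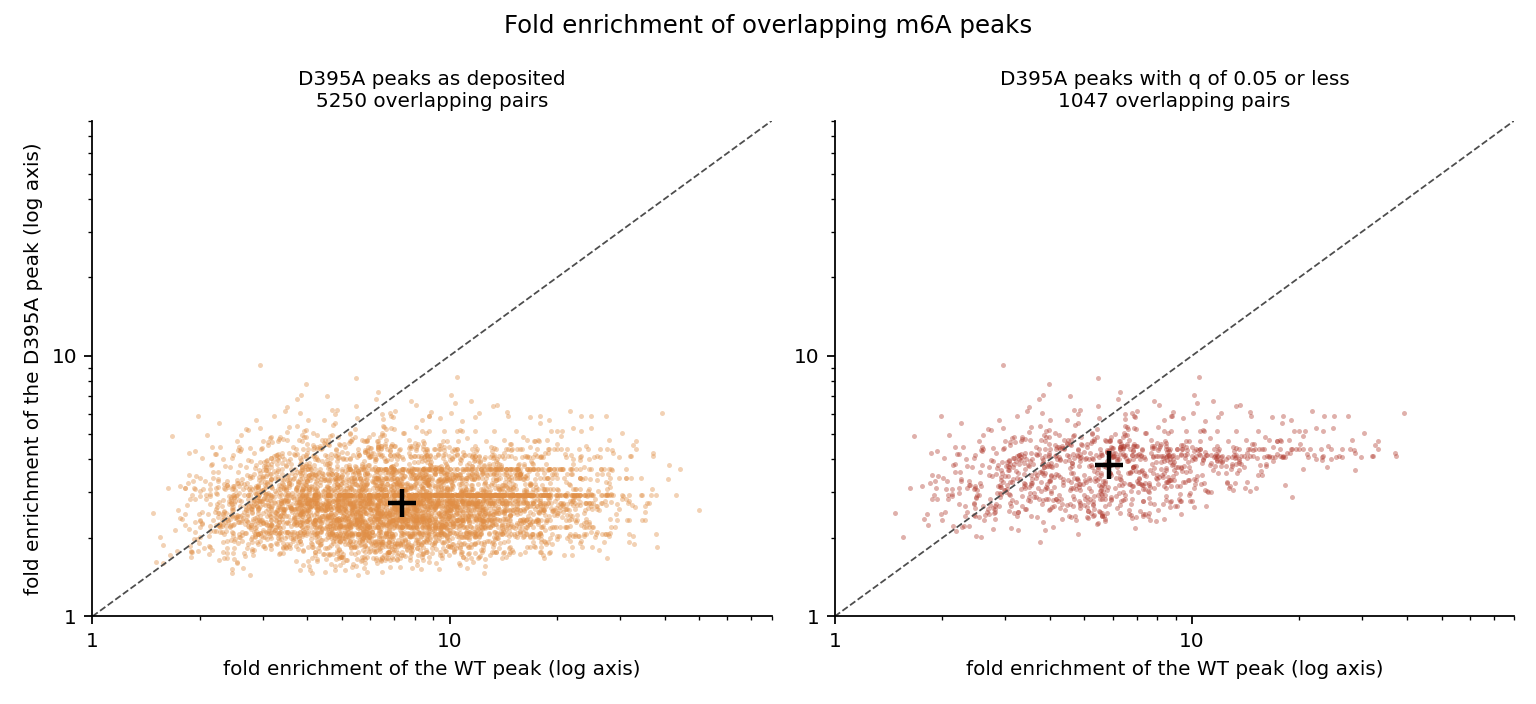
Fold enrichment of the WT peak (horizontal, log axis) and of the overlapping D395A peak (vertical, log axis), 1 point per pair, for all 5250 pairs (left) and the 1047 pairs whose D395A peak had a q-value of 0.05 or less (right); the cross marks the medians and the dashed line equal values. Most points lie under the line, 4905 on the left and 810 on the right, and D395A values stay in a narrow band while WT values spread.

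The weakest WT peaks met a significant D395A peak most often. WT peaks were ranked by fold enrichment into 5 classes of 9689, and 3.32% of the weakest class (at most 4.21-fold) and 1.83% of the strongest (at least 10.9-fold) met a D395A peak of q 0.05 or less, with 1.62 to 1.91% in the classes between. For all D395A peaks the shares were 10.0% and 13.8%, over WT peaks that also differ in width. Peaks missing from the WT list are in none of these classes.

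The difference between the genotypes was smallest at first exons. For pairs whose WT summit lay in a first exon, the median folds were 3.54 in WT and 3.53 in D395A over 66 pairs at q 0.05 or less, and D395A was the higher in 36 of them (54.5%). In internal exons the medians were 5.49 and 3.27 over 293 pairs, with D395A higher in 19.8%, and in last exons 5.16 and 3.25 over 162 pairs, with D395A higher in 23.5%. The widest difference was at distal sites, over 5 kb from any gene of the count table, with 9.16 and 4.21 over 155 pairs. In the lists as deposited the order was the same at its ends, with a median log2 ratio of -0.88 in first exons, -1.32 in internal exons, -1.57 in last exons and -1.79 at distal sites. WT peaks were themselves weaker at first exons than at last exons in these pairs, and the part of WT strength in the difference was not tested.

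The peaks also lay at different places. Of WT summits, 17.1% were in a last exon, 13.4% in an internal exon and 29.9% in an intron, and 26.5% were distal. Of D395A summits, 4.8% were in a last exon, 9.41% in an internal exon and 67.3% in an intron, and 8.97% were distal. At q 0.05 or less, 56.0% of D395A summits were in an intron and 6.2% in a last exon. The 5275 WT peaks with the strongest p-values, the same number, had 12.9% in an intron and 38.2% in a last exon. First exons held 5.46% of the D395A summits of q 0.05 or less and 2.81% of those strongest WT summits. The exonic summits were then placed along the merged exons of their gene. Of 10 equal bins of that length, the bin nearest the 5′ end held 8.38% of WT summits, 5.11% of the strongest WT set, 19.5% of D395A summits and 26.3% of D395A summits of q 0.05 or less. The bin nearest the 3′ end held 7.74% of WT summits, 5.11% of the strongest WT set, 5.0% of D395A summits and 3.08% of D395A summits of q 0.05 or less. Peaks missing from the WT list are not in any of these WT shares, and their part in the differences was not tested. Of the 167 D395A peaks with a −log10 p above 20, 92 had an intronic summit.

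**Figure D2:**
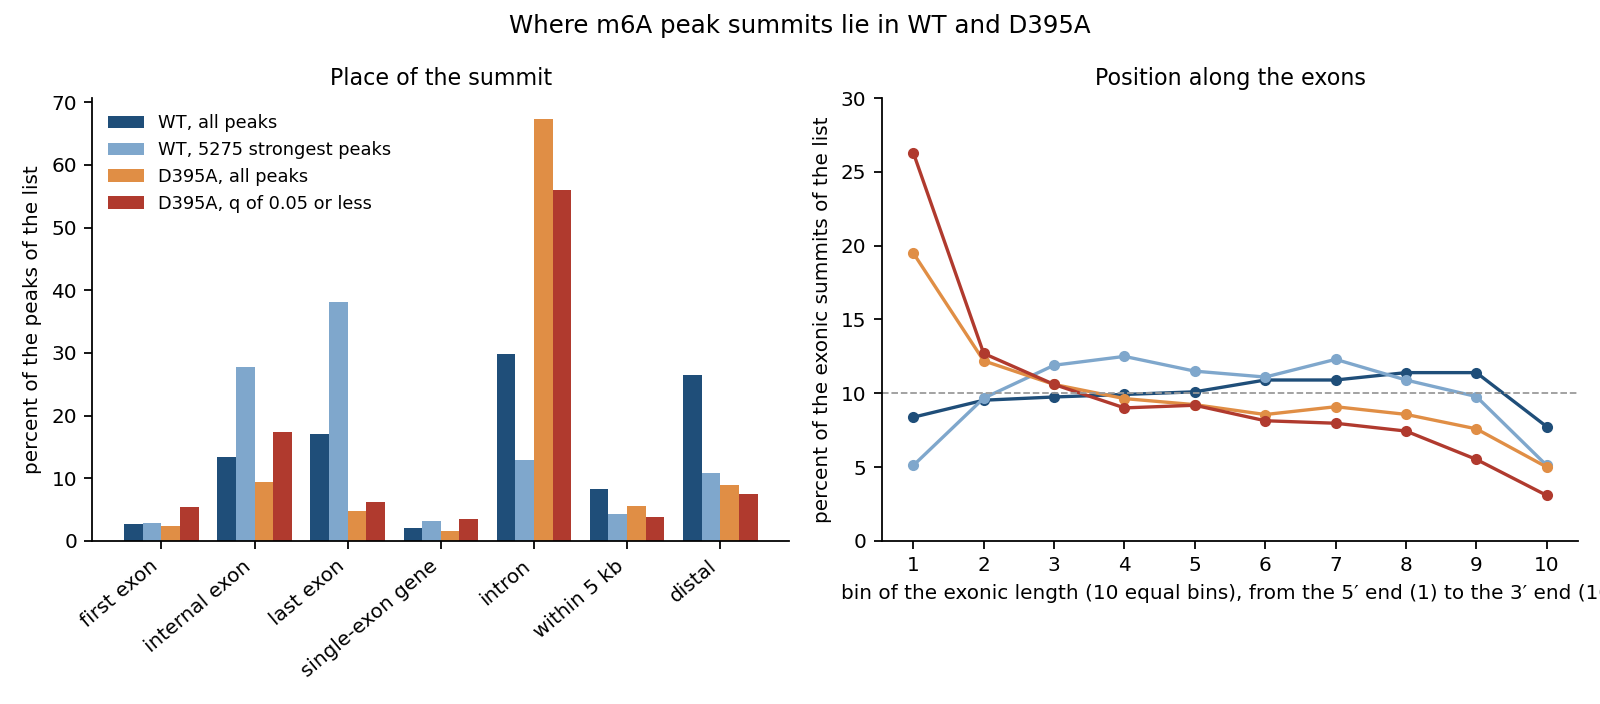
Share of summits (percent of the list) by place on the gene models of the count table (left), and share of exonic summits in 10 equal bins of the exonic length from the 5′ end to the 3′ end (right; dashed line, an even spread), for all WT peaks, the 5275 strongest WT peaks, all D395A peaks and D395A peaks of q 0.05 or less. The strongest WT peaks lead in last exons (38.2%), both D395A sets lead in introns (67.3% and 56.0%), and the D395A lines are highest at the 5′ end (19.5% and 26.3%).

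The D395A peaks in last exons were few but often at WT sites. Of the 1864 D395A summits in last exons 44.0% met a WT peak, against 25.1% in first exons and 6.54% in introns. At q 0.05 or less the shares were 41.3%, 24.7% and 12.0%. Distal D395A summits came near to those in last exons, with 31.2% as deposited and 38.6% at q 0.05 or less. WT peaks in last exons were also wide, with a median of 840 bp against 595 bp over the WT list. The part of WT peak number, WT peak width and missing WT peaks in these shares was not tested. The WT peaks in last exons met a D395A peak in 10.6% of cases, and those in first exons in 16.8%.

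Genes were then compared at matched RNA level, so that a gene counted as lacking a D395A peak had about as much RNA in both groups. A gene was matched when its mean was at least 5 CPM in each group and its fold change was within 1.2 either way, and 3744 of the 10565 genes with at least 5 CPM met this. The CPM values are from total RNA and the peaks from chromatin RNA, so the amount of chromatin RNA was not matched. Of the 3744 genes, 2643 (70.6%) held an exonic WT peak, 2032 (54.3%) an exonic D395A peak and 782 (20.9%) a D395A peak of q 0.05 or less. A WT peak alone was found in 1192 (31.8%), peaks of both lists in 1451 (38.8%) and a D395A peak alone in 581 (15.5%). In 651 (44.9%) of the genes with both, a WT and a D395A peak overlapped. Within the matched genes 838 of 5724 exonic WT peaks (14.6%) and 849 of 3713 exonic D395A peaks (22.9%) met the other list. WT summits of these genes were in last exons in 38.5% of cases and D395A summits in 16.2%.

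D395A peaks followed the RNA level more closely than WT peaks. From the class of 5 to 10 CPM to that of 100 CPM or more, the share of matched genes with a WT peak went from 58.9% to 71.6%, that with a D395A peak from 29.8% to 74.8%, and that with a D395A peak of q 0.05 or less from 2.82% to 42.9%. The fold enrichment of exonic WT peaks was lower in the more abundant RNAs, with medians of 8.2, 6.93, 5.64 and 4.8 across the 4 classes. That of D395A peaks was 2.69, 2.65, 2.76 and 2.66, and that of D395A peaks of q 0.05 or less was also lower in the more abundant RNAs, with 5.37, 4.13, 3.96 and 3.3 over 7, 42, 272 and 862 peaks. Longer genes held more peaks of both lists. The share with a WT peak was 51.2%, 75.2% and 85.4% across 3 equal classes of matched genes by exonic length (up to 3241, 5747 and beyond), and the share with a D395A peak 42.1%, 50.3% and 70.4%.

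In short and abundant RNAs the order of the genotypes was turned around. The 279 matched genes with at least 100 CPM and an exonic length of at most 3241 bases held a WT peak in 105 cases (37.6%), a D395A peak in 191 (68.5%) and a D395A peak of q 0.05 or less in 130 (46.6%). Ribosomal protein genes were 50 of them. Among those 50, 3 held a WT peak and 35 a D395A peak of q 0.05 or less. Among the other 229, the shares were 44.5% with a WT peak, 65.1% with a D395A peak and 41.5% at q 0.05 or less. Outside numbering gaps, these other genes numbered 178, with 45.5%, 59.6% and 37.6%, so at q 0.05 or less the turned order was not seen without the ribosomal protein genes. Over all matched genes outside gaps (3034), the shares were 70.8%, 52.6% and 19.7%.

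**Figure D3:**
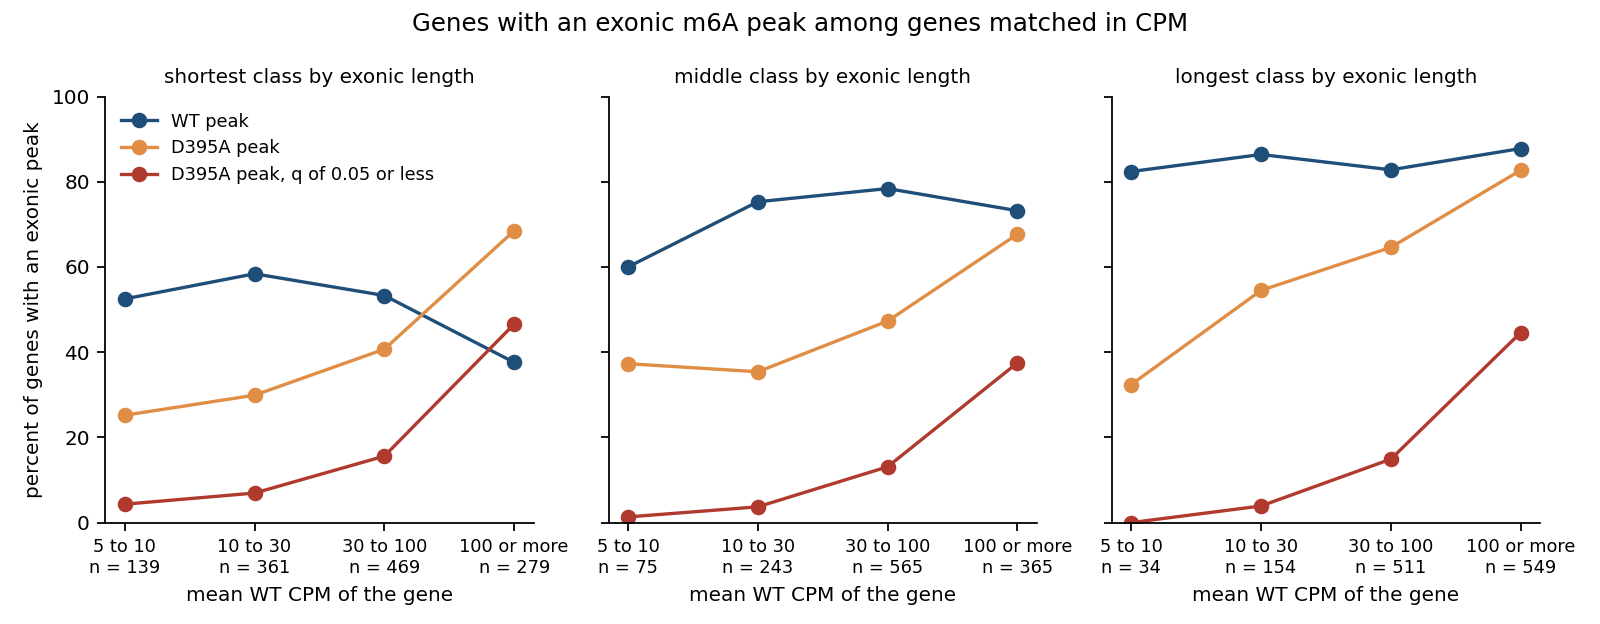
Percent of genes matched in CPM that held an exonic WT peak, D395A peak or D395A peak of q 0.05 or less (vertical), by mean WT CPM (horizontal), in 3 panels by exonic length, with the number of genes under each class. WT shares range from 60.0 to 78.4% and from 82.4 to 87.8% in the middle and longest panels, D395A shares are highest at 100 CPM or more, and in the short genes of 100 CPM or more the D395A shares (68.5% and 46.6%) lie above the WT share (37.6%).

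The matched genes with the strongest WT exonic peak and no D395A peak anywhere in the gene body were found at RNA levels from 12.1 to 120.0 CPM. Fem1a, a substrate receptor of a ubiquitin ligase, had 52.5 and 53.2 CPM in WT and 59.5 and 61.3 CPM in D395A. Its 3 WT peaks covered most of a gene with 1 merged exon, the strongest being 4380 bp wide with 24.3-fold enrichment. Sowahc had 12.8 and 12.2 CPM in WT and 12.7 and 12.1 CPM in D395A, and a WT peak of 30.2-fold. The groups overlapped for Sowahc, while both D395A values of Fem1a lay above both WT values, by less than the matching limit. Of the 8, 3 were zinc finger genes: Zfp27 with a 30.6-fold and Zfp526 with a 25.7-fold peak in the last exon, and Zfp809, whose product silences retroviral DNA in embryonic cells, with 10.1-fold. Mars2, the mitochondrial methionyl-tRNA synthetase gene, had 26.5-fold, Trim39 had 21.9-fold and Aprt, the adenine salvage gene, 8.38-fold. None of the 8 lay in a numbering gap.

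The matched genes with most WT exonic peaks and no D395A exonic peak held 8 to 10 each. The kinase gene Map3k9 had 10 WT peaks of 2.7-fold to 17.1-fold between its first and last exon at 44.2 and 43.8 CPM in WT and 38.6 and 43.2 CPM in D395A. Lrp5, a Wnt co-receptor gene, had 9. Lrp5 had 135.0 and 134.0 CPM in WT and 115.0 and 127.0 CPM in D395A, and 74.8% of matched genes with at least 100 CPM held a D395A peak. Camsap2, Golga3, Slc45a4, Wnk2 and Trafd1 had 8. Map3k9, Golga3, Wnk2 and Trafd1 touched a numbering gap.

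The strongest overlapping pairs lay in genes with 2 to 12 WT exonic peaks. Zfp369 had the strongest overlapping exonic pair of the matched genes, with 10.1-fold in WT and 6.04-fold in D395A; its strongest WT peak, of 12.1-fold, met no D395A peak. Arhgap5, a GTPase activator gene, held 4 pairs, at 6.57-fold in WT and 5.31-fold in D395A for the first and at 8.53-fold and 4.27-fold for a site in an internal exon. Bptf, the gene of a chromatin remodelling subunit, had 371.0 and 359.0 CPM in WT and 370.0 and 412.0 CPM in D395A, with 11 WT peaks, 4 D395A peaks and 3 pairs. Of its pairs with the WT summit in an intron, one measured 6.99-fold in WT and 5.22-fold in D395A and the other 2.78-fold and 3.93-fold. Its pair in an internal exon measured 6.75-fold and 3.03-fold. Rsl1, a zinc finger repressor gene, had 9.41 and 11.2 CPM in WT and 11.4 and 12.0 CPM in D395A, with 22.2-fold in WT and 5.3-fold in D395A in its last exon. For Gins1, Akap9, Mrpl50 and Ddx18, the strongest D395A peak was between 4.81-fold and 5.05-fold and the strongest WT peak between 5.33-fold and 16.1-fold.

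Of the 8 matched genes with the strongest D395A peaks and no WT peak in the gene body, all but Gm21887 had over 100 CPM in the 4 libraries. Eef1a1, the gene of a translation elongation factor, had 3302 and 3332 CPM in WT and 4093 and 3258 CPM in D395A and a 4.7-fold D395A peak of 2110 bp. Rpl26, Rpl41 and Rplp0, of the large ribosomal subunit, had 6.03-fold, 4.74-fold and 5.61-fold peaks at 302 to 541 CPM over the 4 libraries. Hspa5, the chaperone gene of the endoplasmic reticulum, had 231.0 and 226.0 CPM in WT, 277.0 and 266.0 CPM in D395A and 3 D395A peaks, all of q 0.05 or less. The mitochondrial mt-Co1 had a 2.7-fold peak, and the WT list held no peak on mitochondrial DNA. Gm26917, an RNA at 14994 to 20542 CPM, and Gm21887, at 69.0 to 88.7 CPM, completed the 8. Gm26917, Eef1a1 and Hspa5 lay in numbering gaps, and the 3 ribosomal protein genes did not.

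**Figure D4:**
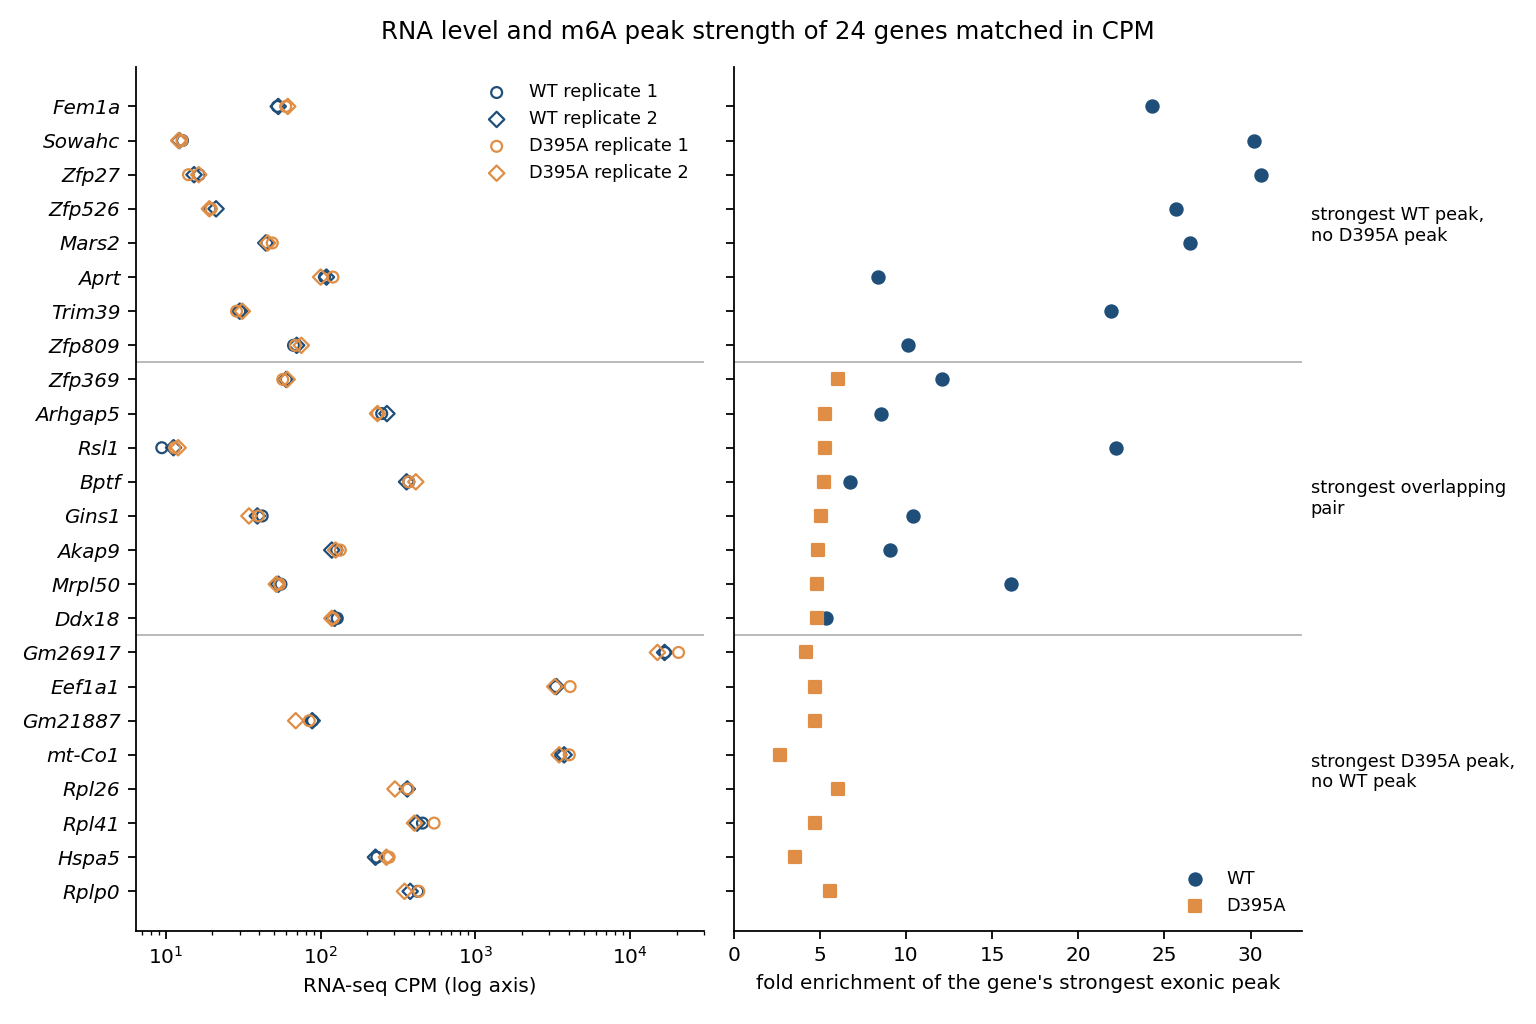
RNA-seq CPM in each of the 4 libraries (left, log axis) and fold enrichment of the strongest exonic peak of each list (right) for 24 genes matched in CPM, in 3 sets named by the rule. CPM of the genotypes coincide closely within each gene, while the WT peaks in the upper set reach 30.6-fold and the D395A peaks in the lower set lie between 2.7-fold and 6.03-fold.

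Gene families differed in which list held their peaks. Of the 79 ribosomal protein genes with at least 5 CPM in both groups, 7 (8.86%) held an exonic WT peak, 66 (83.5%) a D395A peak and 57 (72.2%) a D395A peak of q 0.05 or less. Over all 10565 genes with at least 5 CPM the shares were 71.9%, 52.3% and 17.8%. The ribosomal protein genes had a median exonic length of 1739 bases and 11 touched a numbering gap. Outside the gaps, 5 of 68 held a WT peak and 51 a D395A peak of q 0.05 or less. Rps28 had a WT peak of 6.18-fold and a D395A peak of 3.5-fold that did not overlap. Zinc finger genes named Zfp, many of them repressors of transposons, differed from all genes mainly in the WT list, where 302 of 321 (94.1%) held a peak. A D395A peak was in 166 (51.7%) and one of q 0.05 or less in 49 (15.3%), near the shares of all genes. The zinc finger genes had a median length of 4426 bases and a median WT level of 29.0 CPM, against 362.0 CPM for the ribosomal protein genes. Among matched genes the counts were 3, 50 and 43 of 59 ribosomal protein genes and 101, 46 and 14 of 103 zinc finger genes. Ribosomal protein genes, histone genes and Eef1a1 have near-identical copies elsewhere in the genome, and the treatment of reads with several matches is not stated in the labels, so their counts and peaks are uncertain. Replication-dependent histone genes, whose short messages end in a stem-loop, held a WT peak in 3 of 61 and a D395A peak of q 0.05 or less in 20 of 61.

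Lists of chromatin and RNA regulators varied around the shares of all genes with at least 5 CPM (71.9% with a WT peak, 52.3% with a D395A peak and 17.8% with one of q 0.05 or less). All 10 H3K9 demethylase genes with at least 5 CPM held a WT peak, 8 a D395A peak and 4 a D395A peak of q 0.05 or less. Among H3K9 methyltransferases and their partners 9 of 12 held a WT peak and 4 a D395A peak of q 0.05 or less, and among Polycomb genes 17 and 7 of 20. SR splicing factor genes held a WT peak in 6 of 12 and a D395A peak of q 0.05 or less in 9, and glycolysis genes in 7 and 11 of 18. Immediate early genes held a WT peak in 8 of 9 and no D395A peak of q 0.05 or less. The counts for these small lists are a description, and WT CPM and length differ between lists.

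**Figure D5:**
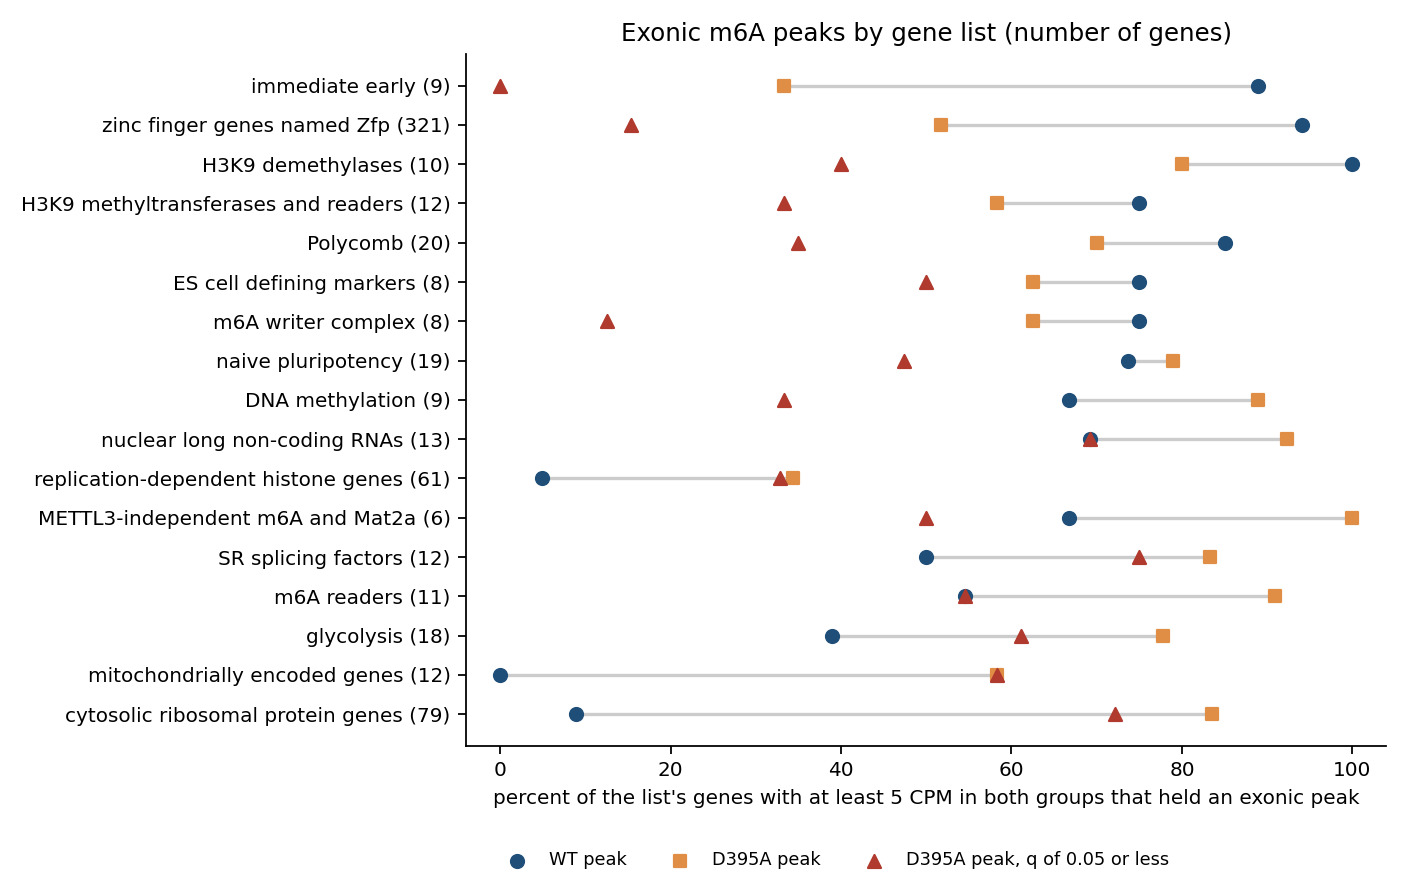
Percent of the genes of each list with at least 5 CPM in both groups (number in brackets) that held an exonic WT peak, D395A peak or D395A peak of q 0.05 or less, ordered by the difference between WT and D395A as deposited. Zinc finger genes are at 94.1% in WT and 15.3% in D395A at q 0.05 or less, and ribosomal protein genes at 8.86% and 72.2%.

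The genes of the m6A machinery are given next. Mettl3 had 36.2 and 35.5 CPM in WT and 30.6 and 33.9 CPM in D395A, a log2 fold change of -0.15 ± 0.08 (SE; edgeR quasi-likelihood test, Benjamini-Hochberg adjusted p = 0.114). This level does not check a substitution, and 21.1% of its exonic bases are shared with an opposite-strand gene. It had no exonic WT peak and 1 D395A peak of 1.99-fold at a −log10 q of 0. Virma, a scaffold subunit of the complex, had 8 WT peaks of 2.5-fold to 12.7-fold and 2 D395A peaks of 2.68-fold and 3.22-fold, neither of q 0.05 or less. Its RNA rose from 131.0 and 138.0 CPM to 212.0 and 222.0 CPM (log2 fold change 0.69, adjusted p = 1.84e-07), so fewer peaks were listed at a higher RNA level. Wtap had 3 exonic WT peaks and no exonic D395A peak, though a D395A peak lay elsewhere in its gene body. Of the 8 writer genes, 6 held a WT peak, 5 a D395A peak and 1, Zc3h13, a D395A peak of q 0.05 or less, near the 71.9%, 52.3% and 17.8% of all genes with at least 5 CPM.

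Of the 11 reader genes 6 (54.5%) held a WT peak, 10 (90.9%) a D395A peak and 6 (54.5%) a D395A peak of q 0.05 or less. The shares were 71.9%, 52.3% and 17.8% over all genes with at least 5 CPM. They were 71.6%, 74.8% and 42.9% over matched genes with at least 100 CPM, and the median WT level of the readers was 182 CPM. Of the 11 readers, 3 touched a numbering gap. Ythdc1, the nuclear reader, had a pair of equal strength at its 5′ end. At chr5:86804152-86804474, in the first exon, the WT peak measured 5.25-fold and the overlapping D395A peak 5.0-fold. In an internal exon a further pair measured 4.04-fold and 3.88-fold. Its widest WT peak, of 2069 bp and 8.6-fold in an internal exon, met no D395A peak, nor did those of 3.32-fold and 4.06-fold. Ythdf2, which directs marked messages to decay, had a WT peak of 7.69-fold, a D395A peak of 4.23-fold and the largest rise among the readers, from 164.0 and 169.0 CPM to 331.0 and 347.0 CPM (adjusted p = 3.33e-09). Hnrnpa2b1 and Hnrnpc, which bind RNA near m6A, held D395A peaks of up to 4.01-fold and 2.66-fold and no WT peak.

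Mat2a held the strongest D395A peak by p-value. It spanned 7384 bp (chr6:72430409-72437792), with its summit in the last exon, a 24.2-fold enrichment and a −log10 q of 248. No WT peak was listed in the gene, but 2 WT serial numbers were missing between its WT neighbours, which lie 137 kb apart. A second D395A peak at the first exon measured 3.53-fold. Mat2a RNA had 444.0 and 437.0 CPM in WT and 355.0 and 361.0 CPM in D395A (log2 fold change -0.30, adjusted p = 9.19e-04), and 11.3% of its exonic bases are shared with an opposite-strand gene. Other strong D395A peaks in numbering gaps were on Ston1 (intronic summit, 64.9-fold) and Malat1 (6576 bp, 4.41-fold), named after their values were seen. Of the 167 D395A peaks with a −log10 p above 20, 92 had their summit in an intron.

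MicroRNA hairpins that lay under peaks were few. Of 1005 RefSeq hairpins, 52 lay under a WT peak, 27 under a D395A peak and 2 under both. GGAC was in 24.5% of all hairpins, 25.0% of those under a WT peak and 29.6% of those under a D395A peak. The peaks are wider than a hairpin and may belong to the host RNA. The latter were Mir7654 in Arglu1 (3.54-fold in WT and 4.25-fold in D395A) and Mir7075 in Terf2 (4.64-fold and 3.34-fold). Mir2139, in Klhdc7a, and Mir1905, in Mex3a, lay under WT peaks of 12.0-fold and 16.6-fold. Mir5121, in the ribosomal protein gene Rpl13a, and Mir423, in Nsrp1, lay under D395A peaks of 2.64-fold and 5.16-fold. Mir2139 and Mir5121, like the other named hairpins chosen after their values were seen, are shown as a WT and a D395A example, 5′ to 3′ with GGAC in capitals.
Mir2139: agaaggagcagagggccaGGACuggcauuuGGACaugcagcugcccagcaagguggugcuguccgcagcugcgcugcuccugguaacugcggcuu
Mir5121: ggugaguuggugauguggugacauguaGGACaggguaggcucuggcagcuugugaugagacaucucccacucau

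RNA change was set beside the peak classes last. The 4 libraries held 13953069 and 19246342 counts (WT) and 12743677 and 18151353 counts (D395A). Of 17778 tested genes, 36.8% were higher and 34.3% lower in D395A (edgeR quasi-likelihood test, adjusted p below 0.05). In these bulk samples fewer cells of a type and less RNA per cell cannot be told apart. All 8 embryonic stem cell marker genes were tested. Their summed level was 3627 and 3512 CPM in WT and 1895 and 1833 CPM in D395A, and 7 of them fell. Summed fibroblast markers were at 42.4 to 48.2 CPM in the 4 libraries, and primitive endoderm markers at 570 and 567 CPM in WT and 198 and 220 CPM in D395A. Of the 9 endoderm markers tested 3 rose and 3 fell, and their median log2 fold change was 0.09. The part of cell state in the results below was not tested.

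Genes with a peak in WT alone were higher in D395A more often than all genes tested, and genes with a peak in D395A alone lower more often. Genes that share exonic bases with an opposite-strand gene were left out here, because their RNA was called higher more often: among the other 12377 genes 32.3% were higher and 37.1% lower. Of the 4191 with a WT peak alone, 38.9% were higher and 33.3% lower, with a median log2 fold change of 0.05 against -0.07 over all 12377. Of the 3104 with both, 35.0% were higher and 39.6% lower. Of the 1509 with a D395A peak alone, 20.9% were higher and 48.6% lower, with a median of -0.22. Of the 3573 with neither, 27.1% were higher and 34.6% lower. With opposite-strand overlaps kept, 42.5% of the 6300 genes with a WT peak alone were higher, against 36.8% of all genes.

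The classes differ in RNA level, and the order was therefore read within WT CPM classes. Under 5 CPM, 41.3% of genes with a WT peak alone and 26.2% with a D395A peak alone were higher, against 35.7% of all genes of that class, and 23.6%, 23.2% and 23.6% were lower. At 5 to 30 CPM, 41.7% of genes with a WT peak alone and 29.3% with a D395A peak alone were higher, against 36.7% of all genes, and 35.0%, 42.7% and 38.5% were lower. At 30 to 100 CPM 38.1% and 23.4% were higher against 32.4%, and 37.8% and 52.2% lower against 42.7%. At 100 CPM or more 19.9% and 9.81% were higher against 18.3%, and 57.0% and 65.6% lower against 56.9%. Genes with peaks of both lists were higher in 51.6%, 45.0%, 35.7% and 22.4% across the 4 classes, more often than genes with a WT peak alone in all but the class of 30 to 100 CPM, so a high share was not particular to genes with a WT peak alone. Genes with neither were higher in 31.1%, 21.8%, 18.6% and 15.0%, so a low share was not particular to genes with a D395A peak alone. The share of genes with a D395A peak was higher at higher CPM, as shown above, so the class of a gene and its RNA change are not independent measures.

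Among genes with WT exonic peaks and no D395A exonic peak, the largest rises were in RNAs nearly absent from WT total RNA. Kif26a, a kinesin family gene, had 0.971 and 1.23 CPM in WT and 108.0 and 117.0 CPM in D395A (log2 fold change 6.64 ± 0.12 SE, adjusted p = 3.31e-14). Its 3 WT peaks reached 22.4-fold over 3113 bp. Lingo3 rose from 0.897 and 0.912 CPM to 26.6 and 24.6 CPM, with a WT peak of 17.1-fold and 3495 bp in its last exon, and Zfp618 from 1.05 and 1.18 CPM to 31.9 and 32.6 CPM, with 4 WT peaks of up to 14.7-fold. Foxa2, an endoderm transcription factor gene, rose from 0.374 and 0.161 CPM to 26.9 and 28.8 CPM, with 1 WT peak of 3.5-fold. Gna14 and Cyyr1 made up the 6. The 6 were picked for a large rise and for having no D395A peak in their exons, so neither trait is a separate result. Gna14, Zfp618, Lingo3 and Cyyr1 held a D395A peak elsewhere in the gene body. Gna14, Zfp618 and Cyyr1 touched a numbering gap. The largest falls were Tlx2, Htr5a, Gm33027, Slfn8, Gm13110 and Sh2d4b, at 19.7 to 35.1 CPM in WT and 0.106 to 1.45 CPM in D395A. Their WT peaks reached 7.36-fold to 25.5-fold, at genes with too little D395A RNA for a matched comparison.

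The pluripotency genes show the 2 lists on RNAs that fell. Of the 19 naive pluripotency genes with at least 5 CPM, 14 held a WT peak and 9 a D395A peak of q 0.05 or less. Over all such genes the shares were 71.9% and 17.8%. The median WT level of the list was 387 CPM, and 42.9% of matched genes with at least 100 CPM held a D395A peak of q 0.05 or less. Of the 20 tested genes 14 fell and 3 rose, against 34.3% and 36.8% of all tested genes. At 100 CPM or more, 56.9% of genes without opposite-strand overlap were lower and 18.3% higher. Tet2 fell from 828.0 and 828.0 CPM to 114.0 and 126.0 CPM and had 5 WT peaks of up to 7.52-fold and 4 D395A peaks, none of q 0.05 or less. Nanog fell from 699.0 and 687.0 CPM to 416.0 and 403.0 CPM, with a WT peak of 4.34-fold in its last exon and no D395A peak. Mycn rose from 73.7 and 69.5 CPM to 150.0 and 157.0 CPM, with 2 WT peaks of up to 8.44-fold that both met D395A peaks, the strongest of 3.59-fold. Sox2, with 292.0 and 264.0 CPM in WT and 280.0 and 243.0 CPM in D395A, had an overlapping pair of 5.32-fold and 2.59-fold at an adjusted p of 0.3 for its RNA.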

How the data were processed

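The m6A peak lists are the authors' MACS2 narrowPeak calls on mm10: fold enrichment (a ratio over input), −log10 p, −log10 q and a score per peak, as deposited in headerless narrowPeak columns; the submitters' processing notes name MACS2 2.1.1, HISAT2 2.1.0 and featureCounts 1.6.3. The WT list has 2 further columns, not used here. Raw counts per gene were deposited by the authors; both WT immunoprecipitated libraries share 1 list, per the labels, which do not state how the libraries were pooled. One D395A count column is spelled with 1 other letter than the sample title and was matched to it.

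Peaks were matched by at least 1 bp (bedtools 2.31.1) and assigned to genes by the count table's merged exons. Peaks carry no strand. RNA was tested with edgeR 4.0.16 (quasi-likelihood, filterByExpr, TMM, Benjamini-Hochberg over 17778 genes), checked on simulated counts: of 50 genes changed 1.5-fold 98% were recovered. The simulation changed few genes, all above 5 CPM, with the same dispersion for every gene. Most tested genes were called in the data, and scaling in that setting was not checked. Named genes were Mettl3, Mat2a, the 8 matched genes of each of 4 peak patterns (under 10% opposite-strand overlap), the 6 largest rises and falls and up to 4 per list. The members and lists were chosen with earlier results of these data known. No genome of the build was used, so peak sequences were not searched. The start windows (8071 of 10565 genes with at least 5 CPM matched by symbol) and hairpins are from RefSeq, GRCm38.p6, the mm10 sequence. DESeq2 1.42.0, other thresholds and left-out libraries were alternatives. Some genes that the naming rule picked are not reported here.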

Additional observations from a re-analysis of the deposited data

How the results depend on the processing

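Of 116 alternatives, 64 stayed close to the main value and 52 moved. Most of the results are single shares or counts, which have no direction to reverse. The median log2 values, which have one, kept their sign. The order of calls over all tested genes did turn with the genes kept. It was 6550 higher and 6093 lower with all genes, and 3999 higher and 4595 lower without opposite-strand overlap. D395A peaks at q of 0.05 and 0.01 moved most: WT peaks meeting a D395A peak were 2.12% and 1.4%, D395A peaks meeting a WT peak 19.7% and 19.8%, the median log2 fold ratio -0.67 and -0.53, matched genes with a D395A peak 20.9% and 15.6%, D395A summits in last exons 6.2% and 6.49% and in introns 56.0% and 53.0%. Genes with a WT peak alone were then higher in 41.1% and 40.9% and lower in 32.5% and 32.8%, with medians of 0.08 and 0.08. The same number of top-ranked peaks from each list gave 11.6% and 12.4%, a ratio of -1.55, 67.6% of matched genes with a WT peak and 19.0% of WT summits in last exons. An overlap of at least 50% of the shorter peak gave 9.35% and 12.5%. Gene bodies in place of exons gave 75.1% (WT) and 72.1% (D395A) of matched genes, closer together than the 70.6% and 54.3% by exons. Gene bodies also gave 29.2% lower and a median of 0.17. Without opposite-strand overlaps these were 68.6% (WT), 38.9% higher, 33.3% lower and 0.05. At least 1 CPM gave 67.4% and 49.3%, and at least 20 CPM 59.5% for D395A. Peak midpoints put 30.8% of WT and 69.2% of D395A peaks in introns and 4.49% of D395A peaks in last exons. For genes with a WT peak alone, DESeq2 gave 36.4% higher and 23.7% lower, and no filter 36.8% and 25.2%. Calls over all genes changed too, with 5622 higher and 4725 lower by DESeq2 and 7712 and 6282 without a filter, against 6550 and 6093. These shares are therefore not comparable with the 36.8% and 34.3% of all genes in the main fit. Leaving out each RNA library gave 36.8 to 41.7% higher and 24.8 to 29.4% lower. Chosen after seeing the data, leaving out numbering gaps gave 15.4% of D395A peaks meeting a WT peak and 52.6% of matched genes, and q of 0.05 without chromosomes 6, 8 and Y 20.8%.

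The replicate block called 6656 genes higher and 6239 lower, against 6550 and 6093; the correlation of same-numbered deviations was 0.0955 with 2 pairs, so the numbers were not taken as pairs. Each D395A peak value rests on 1 library, and depth is unknown for peaks.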
